A study of Mus musculus with 7 samples.

Results

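The genes described are 8 members of the SLAM family of leukocyte surface receptors, Ly9, Slamf1, Slamf6, Cd48, Cd84, Slamf7, Slamf8 and Slamf9, among 17489 genes tested in mouse pancreatic ductal adenocarcinoma (PDA) tumors. They were taken by symbol from a named list of the family. The list was chosen with earlier results of these same tumors in view, so the difference of its members between sgScramble and icOVA tumors is given as a description without a test. All 8 had a row in the table and passed the filter on low counts. The study sequenced RNA of 7 s/c tumors taken 2 weeks after the cells were inoculated, 3 formed with sgScramble control PDA cells (tumors 1, 4 and 5) and 4 formed with sgScramble PDA cells that express icOVA (tumors 15, 16, 18 and 2). The cells of both groups derive from the 1242 line of mouse PDA cells and carry SpCas9 with a guide that has no target gene. The hosts were C57BL/6 mice, bought at 6 wk of age and housed for 2 wk before use. icOVA is ovalbumin kept in the cytoplasm, placed by a lentiviral vector under a doxycycline-inducible promoter and switched on by doxycycline food. The icOVA cells were sorted and cloned from single cells, whereas the methods describe both polyclonal and cloned sgScramble cells and do not say which formed these 3 tumors, nor whether they carried the vector or had the food. A larger inoculum is given for ovalbumin lines than is usual for s/c tumors in the study. The antigen, the clone, the vector, the food and the inoculum therefore cannot be told apart here. Their sex is not given in the sources used here, and the labels do not say that the tumors came from separate mice, so p values measure the spread between these tumors.

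SLAM receptors are immunoglobulin-superfamily proteins on leukocytes. Most of them bind another copy of themselves on a neighbouring cell, and Cd48 is instead the ligand of Cd244a and of Cd2. Most carry tyrosine motifs in the cytoplasm that recruit the small adaptors SAP, encoded by Sh2d1a, and EAT-2, encoded by the Sh2d1b genes, which bring in Src-family kinases. When the adaptors are missing, the same motifs recruit inhibitory phosphatases. Ly9, Slamf1 and Slamf6 are known mainly from T, B and NK cells, Cd48, Cd84 and Slamf7 from lymphoid and myeloid cells, and Slamf8 and Slamf9 from myeloid cells. These classes are used below as lymphoid, broad and myeloid.

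The libraries had 30904855 to 34723344 counts in sgScramble tumors and 32062089 to 37510591 in icOVA tumors. OVA had 85 to 151 counts in sgScramble tumors and 3413 to 10750 in icOVA tumors, as their labels give. All 6 ductal marker genes were present, with a summed CPM (the count relative to the scaled size of the library) of 4214 to 4448 in sgScramble tumors and 2721 to 4675 in icOVA tumors, the lowest in icOVA tumor 18. Leukocyte markers moved with the groups. The 8 T cell genes summed to 65.1 to 95.1 CPM in sgScramble tumors and 149 to 237 in icOVA tumors, and 8 of the 8 passed the test in the direction of icOVA. The 4 pan-leukocyte genes Ptprc, Coro1a, Laptm5 and Lcp1 summed to 594 to 840 CPM and 1058 to 1404 CPM, and 3 of them passed. Macrophage genes were closer between the groups. The 8 macrophage genes summed to 1066 to 1442 CPM and 1407 to 2200 CPM, ranges that overlap, and 1 passed. The 5 NK cell genes summed to 26.9 to 35.3 and 38.3 to 80.5 CPM with 2 passing, and the 8 dendritic cell genes to 84.96 to 111 and 100 to 151 CPM with 1 passing. All 5 of these counts fell to 0 without sgScramble tumor 1, sgScramble tumor 5, icOVA tumor 15 or icOVA tumor 2, and without icOVA tumor 18 the pan-leukocyte count was 2 and the NK cell count 0. The NK cell, macrophage and dendritic cell counts were 1, 2 and 1 without sgScramble tumor 4 and 3, 2 and 4 without icOVA tumor 16. At an unadjusted p below 0.05 they were 3, 5 and 5, with DESeq2 3, 4 and 3, and with limma-voom 0, 2 and 1. Genes of B cells, a main site of several SLAM receptors, were scarce. They reached only 9.56 CPM in sgScramble tumors and 17.4 CPM in icOVA tumors. The 5 mast cell genes ran from 14.0 to 132 CPM and 60.4 to 279.7 CPM, highest in sgScramble tumor 4 and icOVA tumor 18. The sum of the 7 listed lymph node genes was highest in the same tumors (13.2 and 27.4 CPM). Most of that sum was Ccl21a alone, with 11.39 CPM in sgScramble tumor 4 and 21.97 CPM in icOVA tumor 18. Of the 4 lymph node genes tested, Glycam1 was also highest of its group in both tumors. Ccl19 and Cxcl13 were highest of their group in neither, so the sum does not stand for the list. In bulk tumors, fewer cells of a type and less RNA per cell cannot be told apart, and the part of these cell types in the values below was not tested.

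The lymphoid members all had icOVA tumors above every sgScramble tumor. Ly9 (CD229), a receptor that binds itself, had 8.38, 11.1 and 8.44 CPM in sgScramble tumors 1, 4 and 5 and 28.3, 22.4, 28.5 and 22.8 CPM in icOVA tumors 15, 16, 18 and 2. The lowest icOVA tumor was above the highest sgScramble tumor, and the log2 fold change was 1.45 (SE 0.15) between means of 9.30 ± 1.55 CPM (SD, n = 3) and 25.5 ± 3.36 CPM (SD, n = 4). Slamf1 (CD150, a receptor that binds itself and acts in T cells through SAP) was scarce in all libraries. In sgScramble tumors 1, 4 and 5 it was counted 36, 49 and 28 times, and in icOVA tumors 15, 16, 18 and 2 it was counted 159, 87, 137 and 108 times. The log2 fold change was 1.62 (SE 0.28) between means of 1.14 ± 0.310 CPM (SD, n = 3) and 3.52 ± 0.787 CPM (SD, n = 4), the highest of the 8 members and the least precise. The groups did not overlap, and icOVA tumor 16 was the lowest of its group. Slamf6 (Ly108, known from T and NK cells) had 6.07, 7.78 and 5.66 CPM in the sgScramble tumors and 14.5, 13.1, 13.2 and 14.5 CPM in the icOVA tumors. The icOVA tumors were nearly alike and apart from the sgScramble tumors, with a log2 fold change of 1.09 (SE 0.14).

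The broad members also had icOVA tumors above every sgScramble tumor. Cd48, the GPI-anchored ligand of Cd244a and Cd2, had 14.2, 17.6 and 13.5 CPM in sgScramble tumors 1, 4 and 5 and 36.7, 22.9, 35.8 and 27.5 CPM in icOVA tumors 15, 16, 18 and 2. Its icOVA tumors were the most spread among the broad members relative to their mean (30.7 ± 6.67 CPM, SD, n = 4, against 15.1 ± 2.18 CPM, SD, n = 3), with tumors 15 and 18 high and tumor 16 low, and the log2 fold change was 1.03 (SE 0.19). Cd84, a receptor that binds itself and is known from B cells, T cells, macrophages and mast cells, had 34.5, 43.9 and 36.1 CPM and 72.8, 58.1, 76.2 and 58.4 CPM. It had the same high pair of icOVA tumors and a log2 fold change of 0.80 (SE 0.14), the smallest of the 7 members that did not overlap. Slamf7 (CRACC), an activating receptor of NK cells that macrophages also carry, had 22.5, 29.8 and 18.5 CPM and 58.2, 50.6, 47.0 and 44.2 CPM. Its groups were apart, with SDs of 5.71 and 6.04 CPM and a log2 fold change of 1.08 (SE 0.17), but its icOVA tumors had another order, with tumor 18 below tumor 16.

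The 2 myeloid members did not share a pattern. Slamf8, known from macrophages and dendritic cells and from the control of their NADPH oxidase, had 30.3, 42.9 and 26.6 CPM in sgScramble tumors 1, 4 and 5 and 75.7, 74.5, 68.2 and 65.9 CPM in icOVA tumors 15, 16, 18 and 2. The log2 fold change was 1.09 (SE 0.16) between means of 33.3 ± 8.55 CPM (SD, n = 3) and 71.1 ± 4.74 CPM (SD, n = 4), and the icOVA tumors were all above the sgScramble tumors. Slamf9, a receptor of macrophages and dendritic cells, had 7.80, 10.0 and 10.6 CPM in the sgScramble tumors and 9.94, 7.48, 9.84 and 8.74 CPM in the icOVA tumors. The groups of Slamf9 overlapped, with means of 9.49 ± 1.5 CPM (SD, n = 3) and 9.0 ± 1.15 CPM (SD, n = 4), and its log2 fold change was -0.08 (SE 0.16). It had 261 to 368 counts in each tumor.

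**Figure D1:**
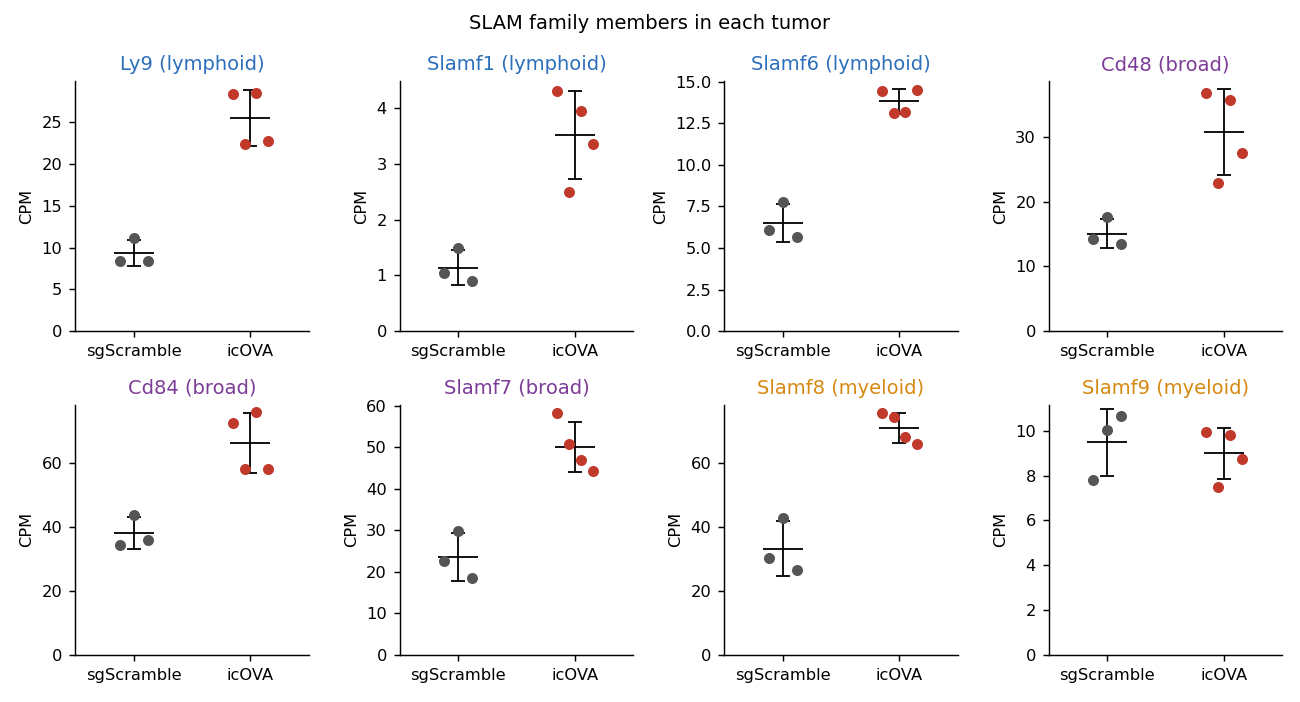
CPM of each SLAM member in each of 3 sgScramble tumors (grey) and 4 icOVA tumors (red), with a panel and a scale from 0 for each gene. The horizontal line is the mean and the bar is 1 SD. The groups are apart for 7 members and overlap for Slamf9.

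The members' median log2 fold change was 1.08, beside -0.005 over all genes tested. In the edgeR fit, 7 of the 8 members were past an adjusted p of 0.05 in the direction of icOVA, where 3.36% of all genes tested were, and 0 were past it in the other direction, where 2.54% were. The same 7 had every icOVA tumor above every sgScramble tumor, which 11.3% of all genes tested had, and 13.3% had every icOVA tumor below. Because the members were picked on this contrast, nothing is read from these counts. Nearest the threshold on the inside was Cd48, with a log2 fold change of 1.03 (SE 0.19), and outside was Slamf9, with -0.08 (SE 0.16). The count of 7 fell to 0 when sgScramble tumor 1, sgScramble tumor 5, icOVA tumor 15 or icOVA tumor 2 was left out, fits in which 0, 0, 0 and 8 genes were called in all. In each of these fits all 7 members still had an unadjusted p below 0.05, as did 3087, 2936, 3415 and 4008 genes. Left-out tumors moved the members' fold changes little, with Ly9 between 1.39 and 1.61, Cd84 between 0.73 and 0.92 and Slamf9 between -0.20 and 0.02.

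The order of the members by level depends on gene length, and levels were compared as CPM per kb of annotated exon. In sgScramble tumors the order was Cd48 (12.7 ± 1.83 CPM per kb, SD, n = 3), Slamf8 (10.8 ± 2.78), Slamf9 (7.23 ± 1.14), Cd84 (6.09 ± 0.804), Slamf7 (5.16 ± 1.25), Ly9 (2.81 ± 0.468), Slamf6 (0.600 ± 0.104) and Slamf1 (0.185 ± 0.0504). The ranges over tumors overlapped between Cd48 and Slamf8, between Slamf9 and Cd84 and between Cd84 and Slamf7, and were apart for the other neighbours in the order. In icOVA tumors Cd48 (25.8 ± 5.61 CPM per kb, SD, n = 4) and Slamf8 (23.1 ± 1.54) were again first and overlapped, followed by Slamf7 (10.9 ± 1.32), Cd84 (10.6 ± 1.51), Ly9 (7.71 ± 1.02), Slamf9 (6.85 ± 0.876), Slamf6 (1.27 ± 0.0704) and Slamf1 (0.572 ± 0.128). Slamf9 thus went from the third place to the sixth, where its range overlapped that of Ly9. In both groups the ligand Cd48 and the myeloid gene Slamf8 were highest and the lymphoid genes Slamf6 and Slamf1 lowest. With the longest transcript as the length, 4 of the 8 members kept their place in each group and Slamf8 came first, at 20.1 CPM per kb in sgScramble and 42.8 in icOVA tumors, before Cd48 at 12.7 and 25.9.

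**Figure D2:**
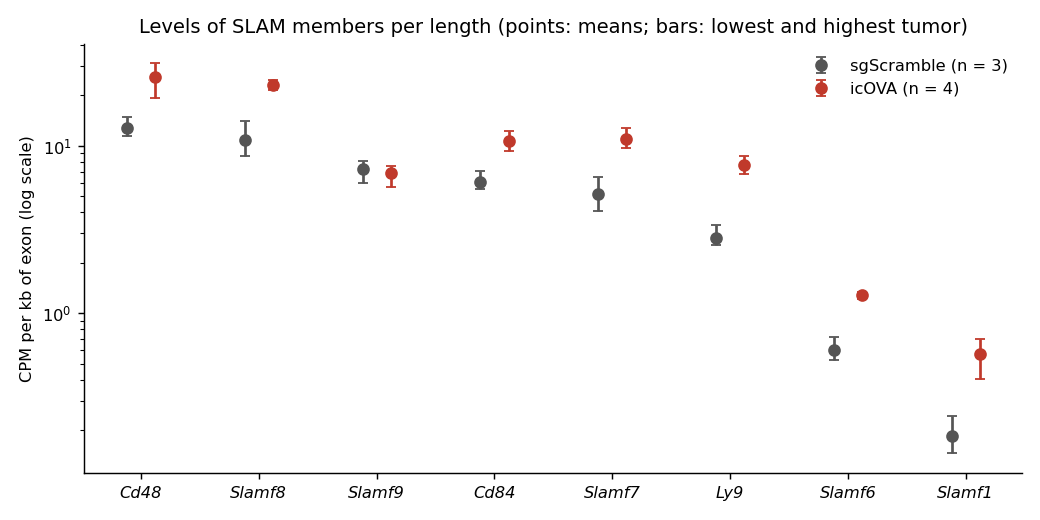
Level of each SLAM member as CPM per kb of exon, on a log scale, in sgScramble (grey) and icOVA (red) tumors, in the order of the sgScramble tumors. Points are group means and bars run from the lowest to the highest tumor. Slamf9 is the member whose groups lie on each other, and Slamf1 is the lowest in both groups.

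Each member was next set against leukocyte genes of the same tumor, as the log2 ratio of its CPM to the summed CPM of a marker list. Relative to the 4 pan-leukocyte genes, Ly9 and Slamf1 were higher in icOVA tumors by 0.59 and 0.76 on the log2 scale, with no overlap between the groups. Ly9 had log2 ratios of -6.21, -6.24 and -6.14 in the sgScramble tumors and -5.63, -5.56, -5.60 and -5.65 in the icOVA tumors. These lymphoid receptors thus differed by more than the general leukocyte genes did. Slamf6, Cd48, Slamf7 and Slamf8 differed by 0.23, 0.14, 0.23 and 0.25 and Cd84 by -0.08, and the groups overlapped for all 5. Slamf9 had log2 ratios of -6.31, -6.39 and -5.80 in the sgScramble tumors and -7.14, -7.14, -7.14 and -7.03 in the icOVA tumors, a difference of -0.94. Slamf9 was thus at 1.39% of the pan-leukocyte sum in sgScramble tumors and 0.722% in icOVA tumors (geometric means), while its CPM overlapped.

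Against the 8 T cell genes, Slamf1 alone of the 8 members was higher without overlap (0.36), while Ly9 (0.18), Slamf6 (-0.18), Cd48 (-0.26), Slamf7 (-0.17) and Slamf8 (-0.15) overlapped. Cd84 (-0.48) and Slamf9 (-1.35) were lower without overlap. Against the 8 macrophage genes, 7 members were higher without overlap, from 0.32 for Cd84 to 1.16 for Slamf1. Slamf8, a macrophage gene itself, was among them with 0.65, and Slamf9 was lower without overlap (-0.54). The 2 myeloid members thus lay on opposite sides of the macrophage sum. Genes with a high CPM weigh most in that sum. C1qa, C1qb and C1qc had means of 294.7, 282.6 and 201.5 CPM in sgScramble tumors. Their log2 fold changes of 0.29, 0.485 and 0.344 were the smallest of the list. Csf1r, at a mean of 220.8 CPM in sgScramble tumors, had 0.621, and Cd68, at 75.5 CPM, had 0.816. The ratios are descriptions of the tumors and rest on the lists chosen. The share of all genes tested that is apart by these ratios was not computed. Nothing is therefore read from the number of members apart.

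**Figure D3:**
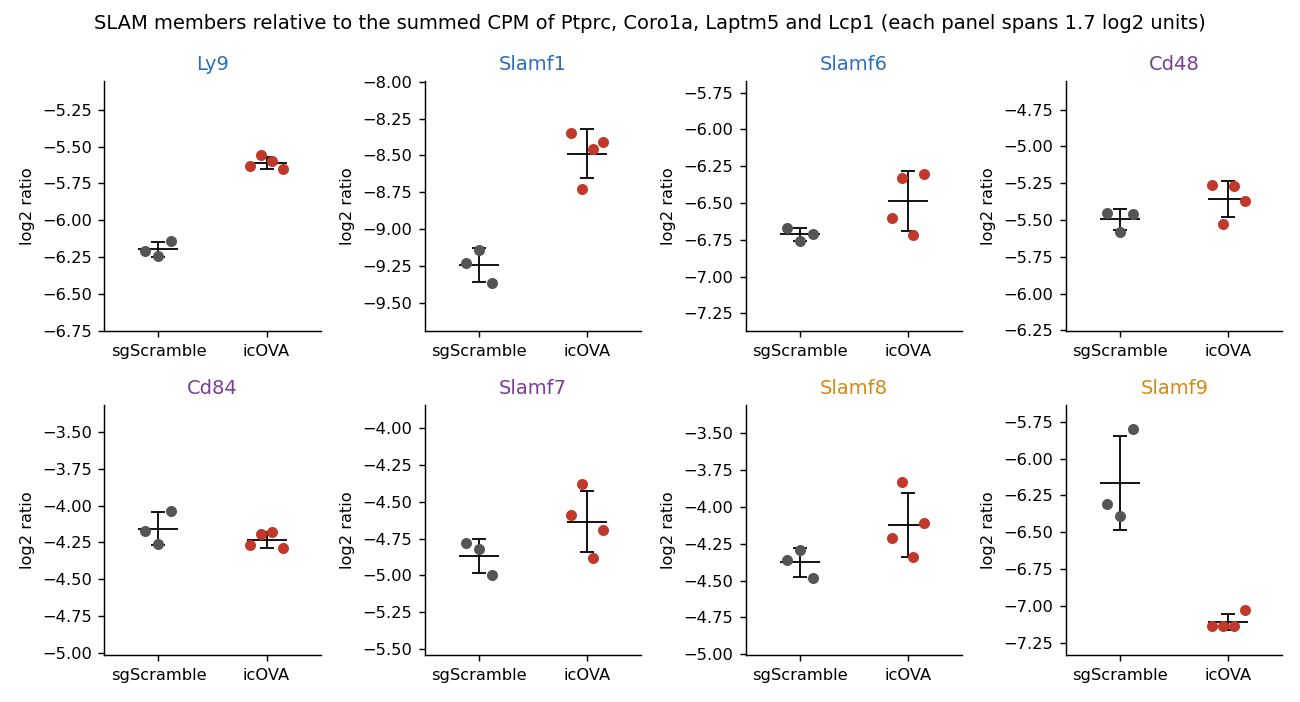
Log2 ratio of each SLAM member's CPM to the summed CPM of 4 pan-leukocyte genes in each sgScramble (grey) and icOVA (red) tumor. Lines are means and bars are 1 SD. Ly9 and Slamf1 lie higher and Slamf9 lower in the icOVA tumors, and the other 5 members overlap.

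Within the groups, the members differed in which tumors were high. sgScramble tumor 4 was the highest of its group for 7 members, by 0.21 to 0.40 log2 CPM above the group mean, and not for Slamf9. Among icOVA tumors, Ly9, Slamf1, Cd48, Cd84 and Slamf9 were above their mean in tumors 15 and 18 and below it in tumors 16 and 2, whereas Slamf6 was above it in tumors 15 and 2 and Slamf7 and Slamf8 were above their mean in tumors 15 and 16. Of the marker genes, those with deviations from the group mean most like Cd48 over the 7 tumors were Cd247 and Cd3d of the T cell receptor complex and the NK receptor gene Klrd1, with mean absolute differences of 0.040, 0.063 and 0.064 log2 CPM. The most alike for Ly9 were Cd68 (0.042), Lcp1 (0.058) and Cd6 (0.066), and for Cd84 they were Cd68 (0.040), Cd6 (0.064) and Cd5 (0.074). Ly9 and Cd84 thus had both a macrophage gene and a T cell gene among their nearest, and Cd48 had T cell genes and Klrd1. By the median over each list, Cd48 was nearer to T cell (0.092), pan-leukocyte (0.096) and macrophage genes (0.122) than to NK cell genes (0.185). Slamf1 was nearest to Cd247, Cd3d and Ptprc (0.089, 0.093 and 0.094), and Slamf6 to Lcp1, Xcr1 and Itgax (0.077, 0.103 and 0.119). Slamf7 was nearest to Lcp1, Ptprc and Csf3r (0.083, 0.084 and 0.134), and Slamf8 to Csf3r, Lcp1 and Xcr1 (0.088, 0.094 and 0.110). Slamf9 was nearest to Cd3g, Txndc5 and Cd5 (0.100, 0.100 and 0.102). The members' own mean absolute deviations were 0.116 to 0.256 log2 CPM, lowest for Slamf6 and highest for Slamf1. Itgax lay farther from Slamf6 (0.119) than the own deviation of Slamf6 (0.116), so it was not alike. For Slamf7, Slamf8 and Slamf9 the own deviations were 0.175, 0.160 and 0.159. The likeness of these and of Slamf6 rests on small differences. All values come from the same 7 libraries.

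The other genes of SLAM signalling were taken from a list of 29 that holds none of the members, of which Il4 was not analysed here. This list too was chosen with earlier results of these tumors known. Its counts are therefore a description and no independent support. Of the 28 tested, 12 rose in icOVA tumors, 0 fell and 16 did not pass an adjusted p of 0.05 in edgeR's quasi-likelihood test (Benjamini-Hochberg), and the median log2 fold change was 0.61 beside -0.005 over all genes tested. At an unadjusted p below 0.05, 17 were higher and 1 lower, and DESeq2 called 16 higher and 1 lower. Over all genes tested, 3.36% were called higher and 2.54% lower. Every icOVA tumor was above every sgScramble tumor for 16 of the 28 and below for 1, beside 11.3% and 13.3% of all genes tested. The receptors that bind Cd48 are described first. Cd2, an adhesion receptor of T and NK cells, had 9.36 ± 1.51 CPM (SD, n = 3) in sgScramble tumors and 23.0 ± 5.62 CPM (SD, n = 4) in icOVA tumors and rose by 1.30 on the log2 scale (SE 0.22, adjusted p = 0.0271 from edgeR). Cd244a (2B4), the SLAM receptor for Cd48 on NK cells and CD8+ T cells, had 6.85, 7.41 and 5.85 CPM in the sgScramble tumors and 10.9, 8.71, 12.3 and 8.80 CPM in the icOVA tumors. The groups did not overlap, but its log2 fold change of 0.61 (SE 0.17) did not pass (adjusted p = 0.0746 from edgeR and 0.0121 from DESeq2, within a range of 0.0121 to 0.260 over all alternatives). Cd244a spans the whole of Ly9 (18787 bases) on the other strand, but the annotated exons of Cd244a and Ly9 share 0 bases, so reads on their exons differ in position. Whether the counting used the strand, or reads outside exons, is not given in the sources used here.

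The adaptors differed. Sh2d1a, which encodes SAP, was counted 25, 34 and 28 times in sgScramble tumors 1, 4 and 5 and 140, 64, 90 and 97 times in icOVA tumors 15, 16, 18 and 2. It rose by 1.67 on the log2 scale (SE 0.29, adjusted p = 0.0284 from edgeR), the largest change among the pathway genes that passed. The EAT-2 genes Sh2d1b1 and Sh2d1b2 did not pass, with log2 fold changes of 0.03 (SE 0.32, adjusted p = 0.961 from edgeR) and -1.42 (SE 0.65, adjusted p = 0.207 from edgeR). Sh2d1b2 was counted 45, 13 and 16 times in sgScramble tumors and 6, 5, 22 and 5 times in icOVA tumors, so the groups overlapped at low depth. The Sh2d1b genes are close copies whose reads the counting could split, and their values are uncertain.

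Of the 4 kinase genes of the list, 3 rose. They were Lck (1.11, SE 0.18, adjusted p = 0.0271 from edgeR), the kinase of the T cell receptor, Prkcq (1.37, SE 0.28, adjusted p = 0.0378), a protein kinase C of T cells, and Fyn (0.59, SE 0.12, adjusted p = 0.0370), the kinase that SAP binds. Csk did not pass (0.14, SE 0.10, adjusted p = 0.402 from edgeR). Lck had 19.8, 23.2 and 19.0 CPM in the sgScramble tumors and 50.9, 32.1, 53.7 and 41.4 CPM in the icOVA tumors. Its icOVA tumors 15 and 18 were high and tumor 16 lowest, as for Cd48. The phosphatase gene Ptpn6 (SHP-1), an inhibitor in most leukocytes, rose by 0.61 on the log2 scale (SE 0.14, adjusted p = 0.0430 from edgeR). The other genes of the class, Inpp5d (0.638, SE 0.199, adjusted p = 0.0942 from edgeR) and Ptpn11 (0.02, SE 0.055), did not pass. Of 5 signalling genes downstream, Vav1, an exchange factor of leukocytes, rose by 0.87 (SE 0.17, adjusted p = 0.0351 from edgeR) and the others did not pass. Among those others, Plcg2 had each icOVA tumor above every sgScramble tumor (0.607, SE 0.172, adjusted p = 0.0765 from edgeR). None of the 3 genes of T cell and NKT cell programs tied to SLAM signals passed, Bcl6, Il21 and Zbtb16.

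Of 8 phagocyte genes that SLAM receptors work with, 5 rose. Itgam and Itgb2, the chains of the integrin Mac-1 that Slamf7 is known to act with in phagocytosis, rose by 0.83 (SE 0.14, adjusted p = 0.0271 from edgeR) and 0.88 (SE 0.13, adjusted p = 0.0241). Itgam had 93.6, 146 and 108 CPM in the sgScramble tumors and 207, 210.1, 206 and 202 CPM in the icOVA tumors. The signalling chains Fcer1g and Tyrobp rose by 0.71 (SE 0.09, adjusted p = 0.0230 from edgeR) and 0.69 (SE 0.15, adjusted p = 0.0418), and Cybb, the oxidase subunit tied to Slamf8, rose by 0.90 (SE 0.16, adjusted p = 0.0305). The autophagy genes Becn1, Pik3c3 and Uvrag did not pass. Pik3c3, the lipid kinase of autophagy, was in each icOVA tumor below every sgScramble tumor, by -0.35 on the log2 scale (SE 0.08, adjusted p = 0.0518 from edgeR). Uvrag went the other way, with each icOVA tumor above every sgScramble tumor (0.315, SE 0.093, adjusted p = 0.0851 from edgeR). Becn1 overlapped, with a log2 fold change of -0.017 (SE 0.054). The count of 12 fell to 0 when sgScramble tumor 1, sgScramble tumor 5, icOVA tumor 15 or icOVA tumor 2 was left out, where 16, 17, 16 and 17 pathway genes were still higher at an unadjusted p below 0.05.

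**Figure D4:**
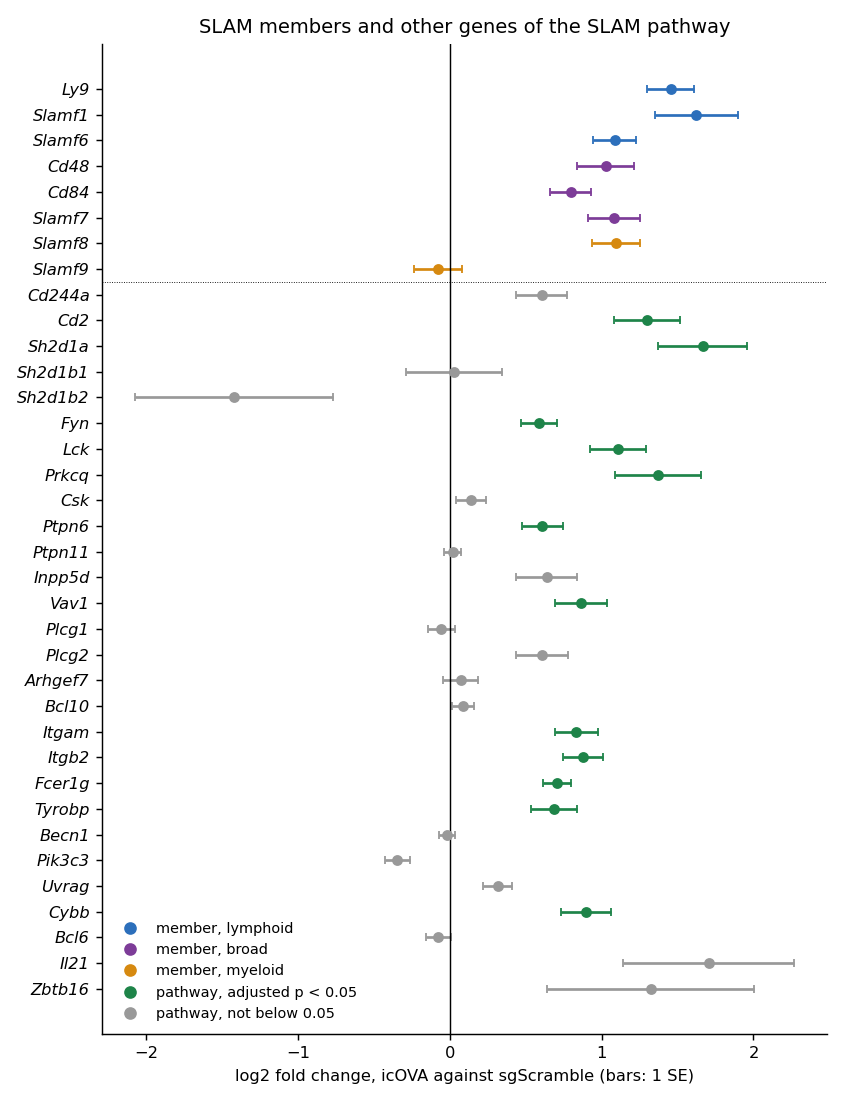
Log2 fold change in icOVA against sgScramble tumors, with bars of 1 SE, for the 8 SLAM members (above the dotted line, coloured by class) and 28 other genes of the pathway (below it, green where the adjusted p is below 0.05). The members run from -0.08 for Slamf9 to 1.62 for Slamf1, and the 12 pathway genes that passed from 0.59 for Fyn to 1.67 for Sh2d1a.

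The members lie on chromosome 1 of GRCm38 in the GENCODE M21 annotation. In order they are Ly9 (171588624 to 171607410, minus strand), Slamf7 (171632403 to 171653035, minus), Cd48 (171682009 to 171705258, plus), Slamf1 (171767127 to 171801184, plus), Cd84 (171839697 to 171890718, plus), Slamf6 (171917515 to 171953170, plus), Slamf9 (172475358 to 172478575, plus) and Slamf8 (172581758 to 172590568, minus). The first 6 span 364.5 kb, and 522.2 kb separate them from Slamf9. Slamf9 and Slamf8 are 103.2 kb apart. Of the other protein-coding genes within 250 kb of a member (Cd244a set aside), 26 were tested, and 0 rose, 4 fell and 22 did not pass, with a median log2 fold change of -0.17. Over all genes tested, 3.36% rose and 2.54% fell. At an unadjusted p below 0.05, 3 were higher and 7 lower, and DESeq2 called 1 higher and 5 lower. The 4 that fell are Crp, an acute-phase protein gene (-4.45, SE 0.74, adjusted p = 0.0271 from edgeR), Vangl2, a planar polarity gene (-0.83, SE 0.19, adjusted p = 0.0456), Dcaf8 (-0.46, SE 0.09, adjusted p = 0.0314) and Igsf8 (-0.30, SE 0.07, adjusted p = 0.0454). Crp was scarce, with 108, 34 and 72 counts in sgScramble tumors and 0, 3, 2 and 8 in icOVA tumors. The count of 4 was 0 without sgScramble tumor 1, sgScramble tumor 5, icOVA tumor 15 or icOVA tumor 2, and 2 without icOVA tumor 18.

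**Figure D5:**
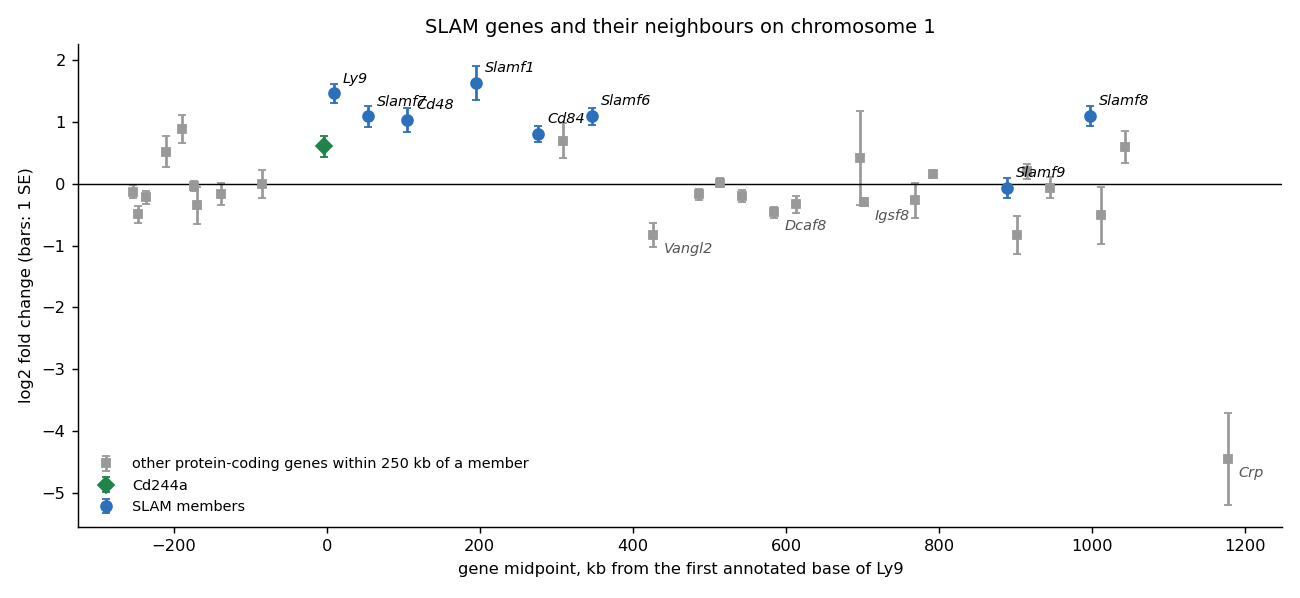
Log2 fold change (icOVA against sgScramble, bars of 1 SE) of SLAM members (blue), Cd244a (green) and other tested protein-coding genes within 250 kb of a member (grey), by distance in kb from the first annotated base of Ly9. Of the members, 7 lie between 0.80 and 1.62, Slamf9 is near 0, and Crp is lowest at -4.45.

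Promoter sequences were read for the members from RefSeq (GRCm38.p6), which gave 7 of the 8 (none for Ly9). Each holds 250 bases before and 50 after the start that RefSeq gives, 5′ to 3′ on the strand of the gene. The RefSeq start of Slamf6 lies upstream of its start in GENCODE M21, and its window ends before that start, with its last bases in no annotated transcript. The RefSeq start of Slamf7 lies inside its GENCODE span. Short motifs bound by leukocyte factors were searched on both strands, namely AGGAAG for PU.1 and other ETS factors, TGTGGT for RUNX factors, TTCNNNGAA for STAT factors and GAAANNGAA for IRF factors. They are found in 35.4%, 16.8%, 8.30% and 8.56% of all 32851 promoters of this length. Shown are Slamf8 and Slamf9, the myeloid pair that differed, and Cd84, which held the most kinds of motif, with the matches in capitals.
Slamf8, chr1:172590519-172590818, minus strand: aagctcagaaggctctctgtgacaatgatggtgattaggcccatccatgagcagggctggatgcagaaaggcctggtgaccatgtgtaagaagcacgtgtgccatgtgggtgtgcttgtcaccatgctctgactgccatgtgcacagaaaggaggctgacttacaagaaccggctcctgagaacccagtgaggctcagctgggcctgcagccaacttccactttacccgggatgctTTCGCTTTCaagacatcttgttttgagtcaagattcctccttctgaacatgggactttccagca
Slamf9, chr1:172475110-172475409, plus strand: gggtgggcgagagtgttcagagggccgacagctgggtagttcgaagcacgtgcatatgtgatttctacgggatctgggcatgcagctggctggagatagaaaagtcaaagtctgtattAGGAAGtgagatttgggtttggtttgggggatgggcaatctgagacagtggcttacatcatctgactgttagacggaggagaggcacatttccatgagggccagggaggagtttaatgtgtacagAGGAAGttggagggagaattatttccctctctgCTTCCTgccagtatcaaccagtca
Cd84, chr1:171839447-171839746, plus strand: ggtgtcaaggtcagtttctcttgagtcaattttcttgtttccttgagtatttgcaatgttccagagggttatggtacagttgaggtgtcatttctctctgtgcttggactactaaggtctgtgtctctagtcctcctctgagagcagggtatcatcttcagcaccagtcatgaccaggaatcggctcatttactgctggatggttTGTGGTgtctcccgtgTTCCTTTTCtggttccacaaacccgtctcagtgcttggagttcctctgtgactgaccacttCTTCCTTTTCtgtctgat
Slamf8 held 1 IRF match and none of the others, and Slamf9 held 3 ETS matches and none of the others. Cd84 held 1 ETS, 1 RUNX and 2 IRF matches, the last of which overlaps the ETS match, so that they share capitals. Of the 7 promoters, 5 held an ETS match, 2 a RUNX match, 2 an IRF match and 0 a STAT match, and the Slamf6 window, which lies wholly before the GENCODE start, held none. Slamf1, with the highest log2 fold change of the members, held 2 ETS matches and, like Slamf9, none of the others. A match says only that these letters are in the window.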

How the data were processed

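Per the labels and the study's methods, RNA of 7 s/c tumors was sequenced as single reads of 76 bases. The authors deposited raw counts per gene, without normalization, in 22629 rows, of which 22414 matched a symbol in GENCODE M21. The submitters' processing notes name the build mm10. The aligner, the counter, its annotation and its use of strand are not given in the sources used here. The methods name a stranded total RNA kit and the labels polyA RNA.

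Counts were tested with edgeR 4.0.16 in R 4.3.3 (filterByExpr with a minimum count of 10 and a minimum total of 15, TMM scaling, the quasi-likelihood test without covariates, Benjamini-Hochberg adjustment over 17489 genes, threshold 0.05), after a check on simulated counts. A prior count of 2 was used for log2 CPM. The SE is the log2 fold change divided by the square root of F. No pair of libraries had counts within sampling noise of each other. Alternatives were DESeq2 1.42.0, limma-voom (limma 3.58.1), other scalings, filters and prior count, and leaving out each tumor.

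The members and lists were chosen with earlier results of these data known. Named by rule were all members, pathway genes past the threshold with Cd244a, Cd2, Sh2d1a and the Sh2d1b genes, up to 5 neighbours past it, and the 3 marker genes most like each member. Some other pathway genes are named where their class is described. The remaining marker lists had 2 of 4 tested plasma cell genes called higher, and 0 of 6 B cell, 4 neutrophil, 5 mast cell, 3 platelet, 4 lymph node, 6 ductal and 1 skin gene tested called in either direction (of these 29 genes, 7 had an unadjusted p below 0.05 and DESeq2 called 5).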

Additional observations from a re-analysis of the deposited data

Results flagged for a closer look

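Sh2d1b2, an EAT-2 adaptor gene, was at -0.53 log2 CPM in icOVA tumor 18 and at -2.18, -2.31 and -2.22 in icOVA tumors 15, 16 and 2, a gap to the nearest tumor of 0.928 of the range of the group. The values stand for 22 counts against 6, 5 and 5. It was the only 1 found among 23 genes examined (the members, the pathway genes past the threshold, Cd244a and the Sh2d1b genes). At 1 in 20 per gene, chance gives about 1.15 among the 23, so 1 is no more than chance gives.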

How the results depend on the processing

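No paired analysis was possible because no tumor number occurs in both groups. The 56 values of the members under 7 alternatives with all tumors kept, and the 56 with a tumor left out, were within 1 SD of those reported. DESeq2 called 1558 genes higher and 1278 lower where edgeR called 588 and 444, and 1 neighbour higher. Total counts, the upper quartile, at least 10 counts in every tumor and DESeq2 each called 1 pathway gene lower (Pik3c3), and without a filter 2 neighbours were called lower. Relative to Ptprc alone the members' median was 0.012 against 0.229 for the 4 pan-leukocyte genes. With the longest transcript, 4 members kept their place in sgScramble and 4 in icOVA tumors. Leaving out each tumor gave 0 to 1014 genes called higher and 0 to 716 lower, 0 to 13 pathway genes higher and 0 to 1 lower, 0 to 1 neighbours higher and 0 to 5 lower, and 0 to 7 members higher and 0 lower. Class medians ran from 1.387 to 1.608 (lymphoid), 0.939 to 1.159 (broad) and 0.418 to 0.650 (myeloid), and the medians relative to leukocyte genes from 0.164 to 0.308 (pan-leukocyte), -0.319 to -0.074 (T cell) and 0.496 to 0.777 (macrophage). The myeloid median is the midpoint of Slamf8 (1.094 with all tumors) and Slamf9 (-0.076) and describes neither gene. Sign turned for genes that were not called, Sh2d1b1 (-0.166 without sgScramble tumor 1, -0.191 without icOVA tumor 18, range to 0.291), the member Slamf9 (0.018 without sgScramble tumor 5, 0.004 without icOVA tumor 16), Arhgef7 (-0.007 without icOVA tumor 18, range to 0.19) and Becn1 (0.006 without sgScramble tumor 5, 0.003 without icOVA tumor 15, range from -0.03). The cause was not tested. With 28 to 159 counts, Slamf1 is the member that depth limits most.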
